A study of Homo sapiens with 24 samples.

Results

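Amino acid synthesis enzymes are described here across K562 cells in which GATA1 or an enhancer was repressed. The set was chosen by pathway and has 10 named genes: ASNS for asparagine, PHGDH, PSAT1 and PSPH for serine, SHMT2 for glycine, CTH and CBS for cysteine, GPT2 for alanine, and ALDH18A1 and PYCR1 for proline. Of these, 9 matched a row among the 21925 gene entries of the count table, and all 9 passed the filter on low counts with which 13147 genes were tested. CBS was not analysed here. The rule uses pathway membership and no measured value, but the genes were listed with earlier results of these data known.

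K562 is a human erythroleukaemia line. The cells expressed a nuclease-dead Cas9 joined to the KRAB repressor domain, a CRISPR interference system under a doxycycline-inducible promoter, and a single guide RNA (sgRNA) directed the repressor to its site. All groups, controls included, carried this system and received doxycycline for 24 hours, in RPMI medium with fetal bovine serum. Polyadenylated RNA from 10000 cells per library was sequenced for 8 sgRNAs with 3 biological replicates each: 2 sgRNAs against the GATA1 transcription start site (GATA1TSS, 6 libraries), 2 against eHDAC6, a putative enhancer of GATA1 (6 libraries), and 4 non-targeting controls (NC, 12 libraries). The RNA was from bulk cultures of 1 cell line, so fewer cells that make an RNA and less of it per cell cannot be told apart.

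Library totals lay between 4290343 and 23205811 counts, GATA1TSS-Guide2 replicate 2 being the shallowest. Apart from that library, the GATA1TSS totals ran from 19204390 to 23205811, and no library of the other groups held more than 16267886. The part of this difference in depth in the results was not tested. The 8 erythroid markers examined were present in every library, the embryonic and fetal globins HBE1, HBG1 and HBG2 with medians of 2400, 2260 and 2520 CPM (counts scaled to a common library total). The summed level of 13 markers of other cell types was 66.1 to 108 CPM in the controls, 72.8 to 94.2 with eHDAC6 and 72.7 to 92.5 with GATA1TSS, 3 of them (MS4A1, COL1A2 and ALB) with a median of 0 and EPCAM the highest (median 61.2 CPM). GATA1, the repressed gene, stood at 363 ± 28.9 CPM (SD, n = 12) in the controls, 247 and 260 CPM with eHDAC6-Guide1 and eHDAC6-Guide2, and 117 and 53.1 CPM with GATA1TSS-Guide1 and GATA1TSS-Guide2 (means, n = 3 each).

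Proliferating cells take up most amino acids and also make the non-essential ones. ASNS, asparagine synthetase, moves an amide group from glutamine to aspartate. PHGDH, PSAT1 and PSPH carry out the successive steps from a glycolytic intermediate to serine, and SHMT2 splits serine into glycine and a one-carbon unit inside mitochondria. CTH releases cysteine at the end of the transsulfuration pathway, GPT2 moves an amino group to pyruvate to give alanine, and ALDH18A1 and PYCR1 catalyse the first and the last part of proline synthesis from glutamate. Many of these genes are known targets of ATF4, the transcription factor that is made when amino acids run short or the integrated stress response is active, and ASNS is a textbook case of its control through a short element of the promoter. Rapidly growing erythroid cells also draw on glycine for heme synthesis.

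The genes lie apart in the genome. In the deposited hg19 gene models ASNS spans positions 97481429 to 97501854 on the minus strand of chromosome 7, PSAT1 80911991 to 80945009 on the plus strand of chromosome 9 and PHGDH 120254419 to 120286849 on the plus strand of chromosome 1. PSPH spans 56078744 to 56119268 on the minus strand of chromosome 7, SHMT2 57623356 to 57628718 on the plus strand of chromosome 12 and CTH 70876901 to 70905534 on the plus strand of chromosome 1. GPT2 spans 46918292 to 46965209 on the plus strand of chromosome 16, ALDH18A1 97365686 to 97416567 on the minus strand of chromosome 10 and PYCR1 79890262 to 79895204 on the minus strand of chromosome 17. Exons of SHMT2 overlap those of NDUFA4L2 on the opposite strand by 33 bases. Reads in that stretch are uncertain, because the use of strand in counting is not stated in the labels.

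Promoter sequences were found for 5 of the 9 genes in the RefSeq table used here (GRCh38.p14). Below are the 250 bases upstream of the transcription start for ASNS (the first of its 2 listed starts), PSAT1 and PHGDH, the 3 enzymes with the highest control-to-targeted ratios among these 5, and for ALDH18A1, the member with the smallest change against the 12 controls with either element. Each is written in the direction of transcription, and capitals mark a match to a motif. They lie at chr7:97872409-97872658 (minus strand), chr9:78296875-78297124 (plus), chr1:119711684-119711933 (plus) and chr10:95656712-95656961 (minus).
ASNS: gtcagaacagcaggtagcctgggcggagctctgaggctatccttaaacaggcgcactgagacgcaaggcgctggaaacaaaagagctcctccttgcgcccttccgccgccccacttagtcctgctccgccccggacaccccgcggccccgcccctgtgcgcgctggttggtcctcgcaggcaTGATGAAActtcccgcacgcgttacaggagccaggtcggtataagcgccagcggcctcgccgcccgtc
PSAT1: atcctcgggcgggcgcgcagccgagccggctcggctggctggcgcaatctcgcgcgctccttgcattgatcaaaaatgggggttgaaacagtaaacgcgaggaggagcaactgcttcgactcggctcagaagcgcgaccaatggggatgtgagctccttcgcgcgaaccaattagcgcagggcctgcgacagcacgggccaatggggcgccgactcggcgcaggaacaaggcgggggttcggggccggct
PHGDH: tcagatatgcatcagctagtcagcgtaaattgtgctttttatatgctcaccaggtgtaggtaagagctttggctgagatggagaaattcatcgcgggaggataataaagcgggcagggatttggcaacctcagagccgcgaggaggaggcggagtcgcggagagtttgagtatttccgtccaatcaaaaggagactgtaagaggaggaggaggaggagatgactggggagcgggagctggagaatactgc
ALDH18A1: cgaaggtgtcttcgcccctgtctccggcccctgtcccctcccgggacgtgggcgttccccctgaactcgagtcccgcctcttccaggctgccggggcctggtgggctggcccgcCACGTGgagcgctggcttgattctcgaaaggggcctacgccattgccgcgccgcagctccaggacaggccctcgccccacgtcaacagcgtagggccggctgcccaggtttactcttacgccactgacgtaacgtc

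Both strands were searched for TGATGNAA, the core of the amino acid response element to which ATF4 binds with a C/EBP partner. They were also searched for AGATAA, a form of the motif of GATA factors, and for CACGTG, the E-box bound by MYC and MAX. Other forms of the GATA motif were not searched. ASNS held TGATGAAA from 68 to 61 bases before its start, on the sense strand, and ALDH18A1 held CACGTG from 136 to 131 bases before its start. Neither the windows of PSAT1 and PHGDH nor that of CTH held any of these letters. Of 35116 promoter entries, 3.14% held TGATGNAA, 9.17% AGATAA and 6.34% CACGTG in a window of this length. A match describes the sequence and is not evidence of binding.

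The levels in the control libraries differed widely from gene to gene. Per kilobase of exon, the mean over the 12 control libraries was highest for ASNS (287 CPM per kb), followed by PHGDH (175), PYCR1 (151), SHMT2 (133) and PSAT1 (119). CTH stood at 53.2 CPM per kb, PSPH at 26.5, ALDH18A1 at 26.2 and GPT2, the lowest, at 8.17. Over the 12, the enzyme of asparagine synthesis and the first enzyme of the serine route were thus the highest on this scale. PSPH, which ends the serine route, was far lower than both enzymes before it. This ranking depends on the control libraries used. In the 4 lower control libraries described below, PYCR1 (113 CPM per kb), ASNS (109) and SHMT2 (104) all stood above PHGDH (70.1).

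The control libraries did not share a single level of these enzymes. On the first principal component of the controls, computed without the 9 enzymes and without the stress response factors examined below (25.8% of the variance), 8 libraries stood apart from 4. The 4 were NC-Guide3 replicates 2 and 3 and NC-Guide4 replicates 2 and 3, and the 8 were all the others. This division was found in the data, the labels give no batch, and values of the 8 and the 4 are given as a description, with no test between them.

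ASNS stood at 1121, 1054 and 1061 CPM in replicates 1, 2 and 3 of NC-Guide1 and at 840, 843 and 912 CPM in those of NC-Guide2. In NC-Guide3 it stood at 885 CPM in replicate 1 but at 299 and 285 CPM in replicates 2 and 3, and in NC-Guide4 at 892, 253 and 265 CPM. The same sgRNA thus gave both high and low levels of ASNS.

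PSAT1 divided in the same way. Its 8 higher control values ran from 327 to 367 CPM, a narrow band around a mean of 346 ± 13.2 (SD, n = 8), and its 4 lower values were 122, 111, 110 and 107 CPM. PHGDH was 666, 552 and 553 CPM in NC-Guide1, 281, 372 and 409 CPM in NC-Guide2, 415, 160 and 165 CPM in NC-Guide3 and 431, 117 and 124 CPM in NC-Guide4. Unlike PSAT1, PHGDH also varied within the 8, with every NC-Guide1 value above every other control value.

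The ratio of the mean of the 8 to that of the 4 was 3.45 for ASNS, 3.26 for PHGDH, 3.08 for PSAT1, 2.95 for CTH and 2.71 for GPT2. It was smaller for PSPH (1.83), PYCR1 (1.51) and SHMT2 (1.42), and ALDH18A1 had like means in both (0.996). For 7 of the 9 enzymes every one of the 8 lay above every one of the 4, against 5.9% of all genes tested, and the exceptions were ALDH18A1 and PYCR1. This separation is not independent of the division. The enzymes were listed with earlier results known, and other genes of like profile were not removed before the component was computed. GATA1 was 361 ± 35.1 CPM in the 8 and 366 ± 12.8 in the 4. Total counts ran from 7327820 to 16267886 in the 8 and from 13407605 to 15629571 in the 4, the summed markers of other cell types from 84.6 to 108 and from 66.1 to 79.9 CPM, and their part in these differences was not tested.

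Tested over the 4 control sgRNAs as labelled (edgeR's quasi-likelihood test, 3 contrasts, Benjamini-Hochberg adjusted p), 3 of the 9 enzymes were called, where 12.3% of all genes were. These were ASNS (adjusted p = 0.0305), PHGDH (adjusted p = 0.0222) and CTH (adjusted p = 0.0449). The count was 0 when any library of NC-Guide1 or replicate 1 of NC-Guide2 was left out. It was 1 without NC-Guide3 replicate 2 or without NC-Guide4 replicate 2 or 3, and 8 without NC-Guide3 replicate 1 or without NC-Guide4 replicate 1. The share of all genes called in these fits is not given here.

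**Figure D1:**
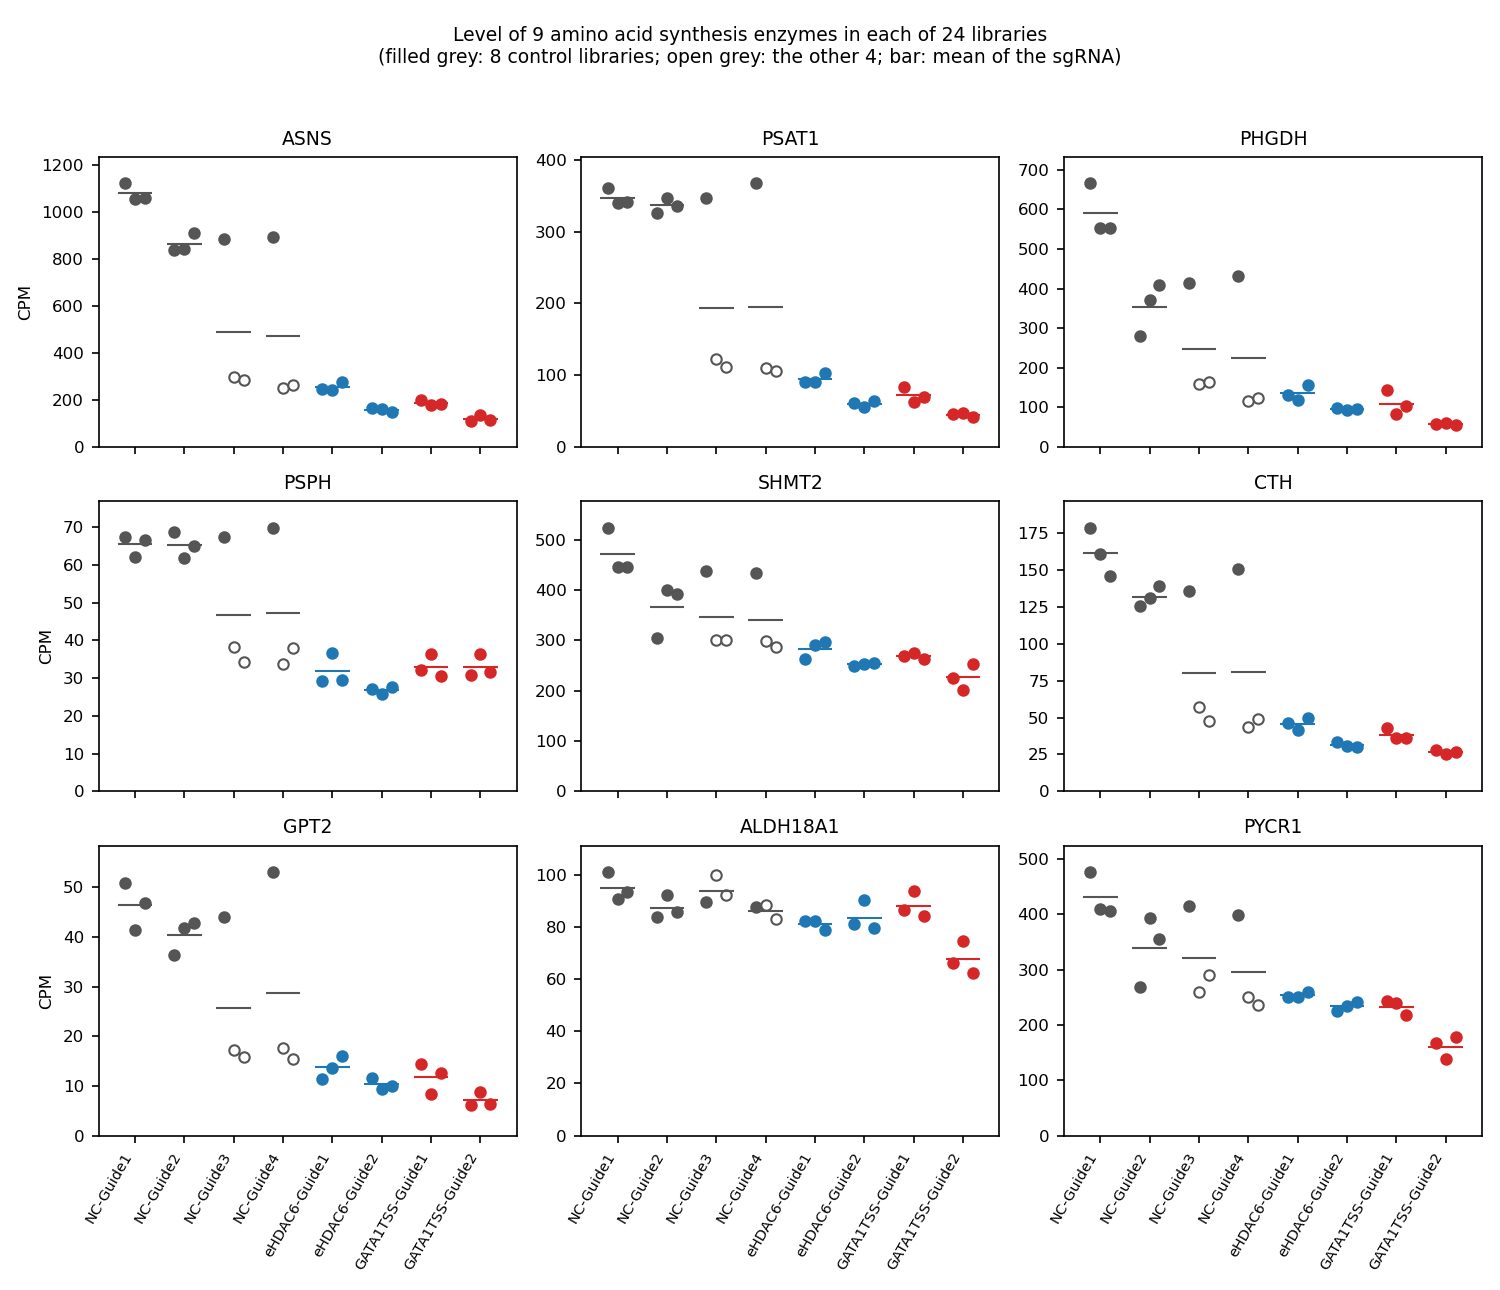
Level in CPM of each of the 9 enzymes in each of the 24 libraries (points, replicates 1 to 3 from left to right), by sgRNA, on linear axes from 0; bars are the mean of the sgRNA, grey is NC, blue eHDAC6 and red GATA1TSS, and open grey points are the 4 lower control libraries. In 7 panels all filled grey points lie above all open ones; in the ALDH18A1 panel they overlap.

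With the GATA1TSS sgRNAs ASNS, PSAT1, PHGDH, GPT2 and CTH were the furthest below the controls, whether against the 12 or the 4. The smallest change was that of ALDH18A1 against the 12 and that of PSPH against the 4. All 9 were called lower than the 12 controls (edgeR, adjusted p under 0.05), where 13.7% of all genes tested were. Their median log2 fold change was -1.76, against -0.0029 over all genes tested. Against the 4 lower control libraries alone, 8 of 9 were called lower (5.39% of all genes), with a median of -0.62 against 0.0024. Against the 8 alone, all 9 were called (14.2% of all genes), with a median of -2.14. The changes against the 12 ran from -2.19 (ASNS) to -0.23 (ALDH18A1). Because the 12 controls held 2 levels of most of these enzymes, the change against the 4 is given for each below. Those against the 12 and the 8 are in the plot of fold changes. The 4 and the 8 were picked from these data, so errors and p-values against them leave out the spread between these levels. For ASNS the SE was 0.23 against the 12 and 0.063 against the 4.

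ASNS was 201, 177 and 183 CPM with GATA1TSS-Guide1 and 109, 136 and 115 CPM with GATA1TSS-Guide2. All 6 values lay below the lowest control value of 253 CPM. Against the 4 controls ASNS fell by 0.89 on the log2 scale (SE 0.063, edgeR adjusted p = 3.77e-09), and in 6 of 6 libraries it was below their mean.

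In the serine route, PSAT1 was 83.7, 62.7 and 70.1 CPM with GATA1TSS-Guide1 and 45.4, 48.0 and 41.7 CPM with GATA1TSS-Guide2. These too were all below the lowest control value, 107 CPM, and the change against the 4 was -0.99 (SE 0.074, edgeR adjusted p = 9.11e-09). PHGDH was 143, 82.2 and 102 CPM with GATA1TSS-Guide1 and 57.2, 61.4 and 54.7 CPM with GATA1TSS-Guide2, a change of -0.82 (SE 0.10, edgeR adjusted p = 1.27e-05). GATA1TSS-Guide1 replicate 1 overlapped the controls for PHGDH, so 5 of 6 libraries lay below the mean of the 4. PSPH, the last enzyme of the route, ran from 30.5 to 36.4 CPM over the 6 libraries (median 31.9) and from 33.7 to 38.1 in the 4 controls, -0.14 on the log2 scale against the 4 (95% interval -0.31 to 0.02, edgeR adjusted p = 0.314).

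SHMT2 ran from 202 to 276 CPM (median 258) with GATA1TSS, all below the lowest control value of 287 CPM, a change of -0.27 against the 4 (SE 0.058, edgeR adjusted p = 0.00424). CTH was 43.1, 36.2 and 36.0 CPM with GATA1TSS-Guide1 and 27.7, 25.5 and 26.7 CPM with GATA1TSS-Guide2, below all controls, a change of -0.62 against the 4 (SE 0.078, edgeR adjusted p = 1.3e-05). GPT2 was 14.4, 8.30 and 12.6 CPM with GATA1TSS-Guide1 and 6.09, 8.87 and 6.32 CPM with GATA1TSS-Guide2, likewise below all controls, and changed by -0.90 against the 4 (SE 0.14, edgeR adjusted p = 0.000122). In the proline route ALDH18A1 changed by -0.24 (SE 0.063, edgeR adjusted p = 0.0142) and PYCR1 by -0.41 (SE 0.063, edgeR adjusted p = 0.000108). The ALDH18A1 change was -0.44 with GATA1TSS-Guide2 (edgeR adjusted p = 0.000227) and -0.04 with GATA1TSS-Guide1 (95% interval -0.19 to 0.10, edgeR adjusted p = 0.95). For 5 enzymes, ASNS, PSAT1, SHMT2, CTH and GPT2, all GATA1TSS libraries lay below all 12 controls, as for 0.996% of all genes.

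With the eHDAC6 sgRNAs all 9 enzymes were called lower than the 12 controls (15.3% of all genes tested), with changes from -1.77 (PSAT1) to -0.14 (ALDH18A1) and a median of -1.52 against -0.0086 over all genes. In a fit on counts summed per sgRNA, which takes its error from the sgRNAs, 5 were called: ASNS, PSAT1, PSPH, CTH and GPT2. The share of all genes called in that fit is not given here, so this count has no such reference. Against the 4, 3 of 9 were called lower, where 0.587% of all genes were, and the median change was -0.31 against -0.003. Against the 8, 8 were called (15.8% of all genes), with a median of -1.90. The ALDH18A1 call against the 12 (-0.14, edgeR adjusted p = 0.0373) was lost in 11 of the 24 fits that left out 1 library. Both elements were compared with the same controls, so their changes are not independent.

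ASNS was 248, 241 and 275 CPM with eHDAC6-Guide1 and 166, 160 and 149 CPM with eHDAC6-Guide2. The first sgRNA overlapped the 4 controls, which began at 253 CPM, and the second did not. The change against the 4 was -0.46 (SE 0.063, edgeR adjusted p = 0.000266). PSAT1 was 90.4, 90.0 and 103 CPM with eHDAC6-Guide1 and 61.2, 55.4 and 64.3 CPM with eHDAC6-Guide2, and was the single member with every eHDAC6 library below every control (0.753% of all genes). Its change against the 4 was -0.58 (SE 0.074, edgeR adjusted p = 0.000115).

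CTH was the third enzyme called against the 4. It was 46.6, 41.4 and 49.8 CPM with eHDAC6-Guide1, overlapping the 4 controls (43.8 to 57.1 CPM), and 33.3, 30.6 and 30.0 CPM with eHDAC6-Guide2, a change of -0.38 (SE 0.078, edgeR adjusted p = 0.00938). Not called against the 4 were PHGDH at -0.29 (95% interval -0.49 to -0.09, edgeR adjusted p = 0.167), PSPH at -0.31, SHMT2 at -0.15, GPT2 at -0.47, ALDH18A1 at -0.14 and PYCR1 at -0.09. At an unadjusted p under 0.05 in edgeR 8 of the 9 enzymes were lower than the 4, all but PYCR1. The share of all genes at that threshold is not given here, so this count has no such reference. The eHDAC6 libraries ran from 93.2 to 158 CPM for PHGDH (median 109), so that they overlapped the 4 controls.

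**Figure D2:**
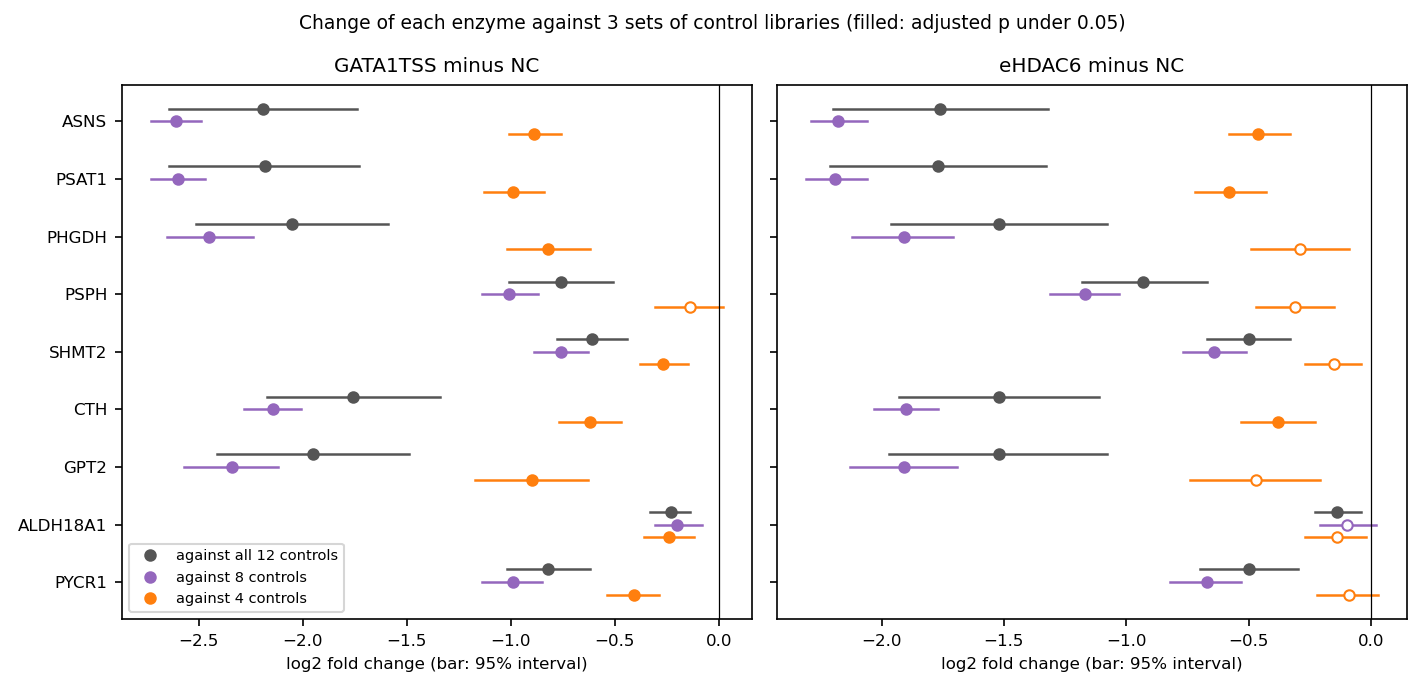
Log2 fold change with 95% interval (horizontal axis) of each enzyme in GATA1TSS (left) and eHDAC6 (right) against all 12, the 8 or the 4 control libraries; filled points passed an edgeR adjusted p under 0.05. Against the 4, 8 enzymes with GATA1TSS and 3 with eHDAC6 are filled.

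The sgRNAs of an element gave different numbers of calls. Against the 4 controls, GATA1TSS-Guide1 had 2 enzymes called lower, ASNS and PSAT1 (0.137% of all genes tested were), and 6 with an unadjusted p under 0.05. GATA1TSS-Guide2 had 8 called lower, all but PSPH (9.85%). For eHDAC6-Guide1 edgeR called none (0.114% of all genes), 2 having an unadjusted p under 0.05. For eHDAC6-Guide2 there were 6: ASNS, PSAT1, PHGDH, PSPH, CTH and GPT2 (0.754%), and 7 had an unadjusted p under 0.05. These percentages are of genes called at an adjusted p under 0.05. No share of all genes is given here for the unadjusted counts. With eHDAC6-Guide2 ASNS changed by -0.80 (SE 0.077, edgeR adjusted p = 2.83e-06), and with eHDAC6-Guide1 by -0.11 (95% interval -0.26 to 0.03, edgeR adjusted p = 0.595).

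The order of levels was not that of GATA1. For ASNS the means rose from GATA1TSS-Guide2 (120 ± 14.2 CPM) to eHDAC6-Guide2 (158 ± 8.52), GATA1TSS-Guide1 (187 ± 12.8) and eHDAC6-Guide1 (255 ± 18.2; SD, n = 3 each), with no overlap between neighbours. PSAT1, PHGDH, SHMT2, CTH and GPT2 had the same order of means. Neighbours overlapped in part: for PSAT1, eHDAC6-Guide2 (60.3 ± 4.50 CPM) overlapped GATA1TSS-Guide1 (72.1 ± 10.7), and for PHGDH GATA1TSS-Guide1 overlapped both eHDAC6 sgRNAs.

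GATA1 itself was lower with GATA1TSS-Guide1 than with eHDAC6-Guide2, at 31.8% and 71.0% of the mean of the 4 controls. By contrast, 8 of the 9 enzymes had a lower mean with eHDAC6-Guide2 than with GATA1TSS-Guide1, as did 50% of all genes tested, and 4 of them (ASNS, PSPH, SHMT2 and CTH) did so without overlap (6.56% of all genes). PYCR1 had near-equal means of 233 CPM. The difference between these sgRNAs was not tested beyond this overlap.

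The 2 eHDAC6 sgRNAs left near-equal GATA1 (67.5% and 71.0% of the 4 controls). Without overlap, 7 of the 9 enzymes were lower with eHDAC6-Guide2 than with eHDAC6-Guide1 (6.25% of all genes), the exceptions being GPT2 and ALDH18A1. In the fit over all 24 libraries none was called by edgeR (0% of all genes lower), none had an unadjusted p under 0.05, and DESeq2 called none. For the unadjusted p and for DESeq2 the share of all genes is not given here. In a fit over the 12 targeted libraries alone, whose error leaves out the divided controls, 3 were called lower where 0.0855% of all genes were. These were ASNS at -0.69 (SE 0.085, edgeR adjusted p = 0.000227), PSAT1 at -0.64 (SE 0.10, edgeR adjusted p = 0.00503) and CTH at -0.55 (SE 0.10, edgeR adjusted p = 0.0227).

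Between the GATA1TSS sgRNAs, 7 enzymes were lower with GATA1TSS-Guide2 without overlap (12.9% of all genes), PSPH and GPT2 being the exceptions. Over all 24 libraries edgeR called 1, ALDH18A1 (1.7% of all genes called lower). It was 86.6, 93.8 and 84.2 CPM with GATA1TSS-Guide1 and 66.3, 74.8 and 62.5 CPM with GATA1TSS-Guide2, a difference of -0.39 in log2 terms (SE 0.081, adjusted p = 0.00613 in edgeR). Without GATA1TSS-Guide2 replicate 3 this call was lost (-0.33). Over the 12 targeted libraries, 7 were called lower (4.19% of all genes), all but PSPH and SHMT2, with PHGDH furthest at -0.93 (SE 0.14, edgeR adjusted p = 0.00018).

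The elements were compared with each other in the same 2 fits. Over all 24 libraries edgeR called none of the 9 (0.875% of all genes higher with eHDAC6, 0.654% lower). DESeq2 called none, and 2, PHGDH and PYCR1, had an unadjusted p under 0.05 in edgeR. Neither of these counts has a share of all genes beside it here. Over the 12 targeted libraries 4 were called higher with eHDAC6 than with GATA1TSS (3.08% of all genes): ASNS by 0.43, PSAT1 by 0.41, PHGDH by 0.53 and PYCR1 by 0.32 on the log2 scale, with edgeR adjusted p from 0.000251 to 0.00238. For every enzyme the libraries of the 2 elements overlapped (0.669% of all genes were higher with eHDAC6 without overlap and 0.639% lower).

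**Figure D3:**
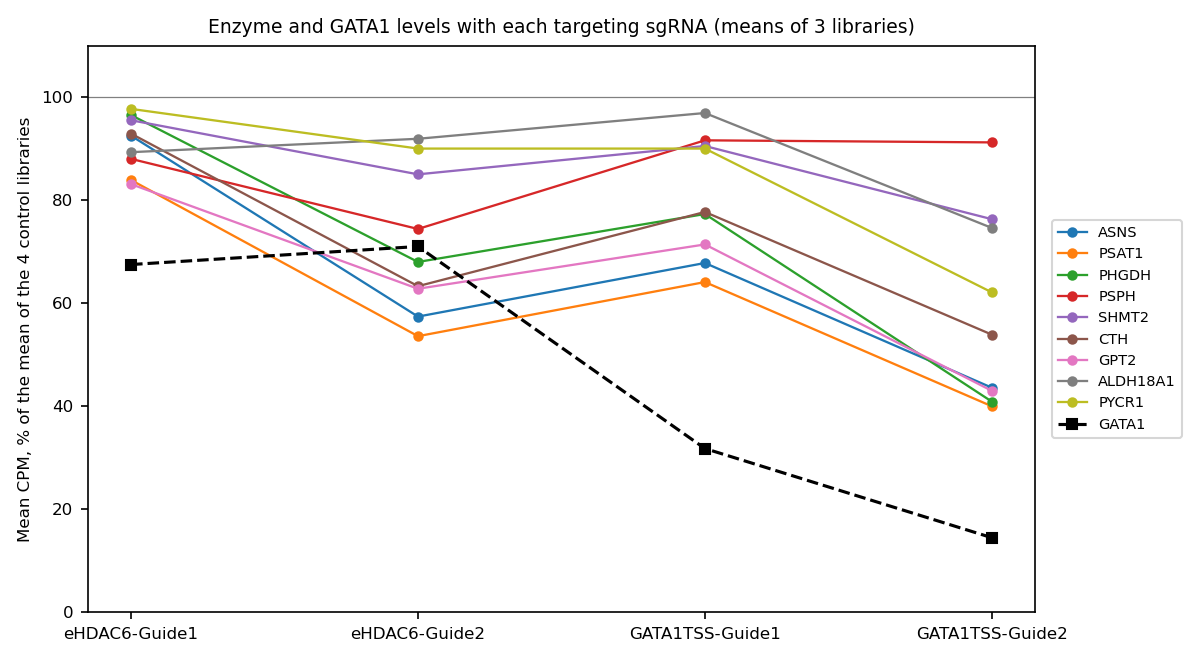
Mean CPM (n = 3 libraries) of each enzyme and of GATA1 with each targeting sgRNA, as a percentage of the mean of the 4 lower control libraries (vertical axis, linear from 0); lines join the means of a gene to guide the eye. GATA1 (dashed) is at 67.5% and 71.0% with the eHDAC6 sgRNAs and at 31.8% and 14.5% with those of GATA1TSS, while ASNS goes from 92.5% to 57.4%, 67.8% and 43.6%.

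Other enzymes of amino acid synthesis had smaller median changes. The members and this list were chosen with earlier results of these data known, so the difference in medians is a description and not a test. Of 16 listed, 10 were tested. With GATA1TSS 3 were called lower and 1 higher than the 12 controls, with a median of -0.10, beside 13.7% of all genes lower and 13.5% higher, and the counts were the same against the 4 (median -0.12, beside 5.39% and 4.84% of all genes). With eHDAC6 it was 3 lower and 2 higher against the 12 (15.3% and 15.8% of all genes), and 0 lower and 1 higher against the 4 (0.587% and 0.899%). At an unadjusted p under 0.05 in edgeR 3 were lower and 1 higher than the 4 (share of all genes not given here). GLUL, which makes glutamine, rose by 0.35 with GATA1TSS and by 0.26 with eHDAC6 against the 4 (edgeR adjusted p = 5.65e-05 and 0.00631), from 1373 ± 79.2 CPM (n = 4) to 1761 ± 159 and 1644 ± 77.6 (n = 6 each). BCAT1, which transaminates branched-chain amino acids, changed by -0.23 with GATA1TSS (edgeR adjusted p = 0.0351) and by -0.25 with eHDAC6 (edgeR adjusted p = 0.0625), and GOT1, the cytosolic aspartate aminotransferase, by -0.24 and -0.19 (edgeR adjusted p = 0.00428 and 0.0581).

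Of 21 listed enzymes of amino acid breakdown, 11 were tested. With GATA1TSS 4 were called lower and 2 higher than the 12 controls (13.7% and 13.5% of all genes), and 2 lower and 2 higher than the 4 (5.39% and 4.84%), with a median of -0.14 in both. With eHDAC6 5 were called lower and 1 higher against the 12 (15.3% and 15.8% of all genes) and none against the 4 (0.587% and 0.899%). Against the 4, 2 lower and 1 higher had an unadjusted p under 0.05 in edgeR (share of all genes not given here). ARG2, the mitochondrial arginase, changed by -0.22 with GATA1TSS (edgeR adjusted p = 0.0462) and by -0.24 with eHDAC6 (edgeR adjusted p = 0.0888) against the 4, and its exons overlap VTI1B on the opposite strand, so that its counts are uncertain in the same way as those of SHMT2. Against the 12, GCSH of the glycine cleavage system changed by -0.40 and -0.37 and BCKDHB of branched-chain ketoacid breakdown by -0.35 and -0.31 with GATA1TSS and eHDAC6, all called, and neither was called against the 4. The 2 enzymes called higher with GATA1TSS were SDSL and SDS, which are related to each other and act on serine. SDSL stood at 15.7 ± 2.78 CPM (n = 4) in the 4 controls, at 15.1 ± 2.07 with GATA1TSS-Guide1 and at 26.9 ± 1.56 with GATA1TSS-Guide2 (n = 3 each), a change of 0.35 for GATA1TSS against the 4 (SE 0.11, edgeR adjusted p = 0.041). SDS, named after its values were seen because it lies under the minimum level for named genes, had means of 0.431 CPM in the 4 controls and 2.01 with GATA1TSS, and changed by 2.18 (SE 0.41, edgeR adjusted p = 0.000925).

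Factors of the stress response were lower in both elements against the 12 controls. Of 15 listed, 10 were tested. ATF4 itself, ATF3, CEBPB, TRIB3 and STC2 were not analysed here. With GATA1TSS 9 were called lower than the 12 controls (13.7% of all genes) and 9 lower than the 4 (5.39%), with medians of -0.93 and -0.40. With eHDAC6 8 were called lower than the 12 (15.3% of all genes) and 2 lower than the 4 (0.587%), with medians of -0.86 and -0.33. CHAC1, which degrades glutathione, changed by -1.03 with GATA1TSS against the 4 (edgeR adjusted p = 0.000369), INHBE, an inhibin subunit, by -0.63 (edgeR adjusted p = 0.0168) and ATF5, a transcription factor close to ATF4, by -0.60 (edgeR adjusted p = 0.00116). Exons of ATF5 overlap other genes on both strands, so its counts are uncertain. With eHDAC6 DDIT4, an inhibitor of mTOR signalling, changed by -0.46 against the 4 (edgeR adjusted p = 0.0174).

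**Figure D4:**
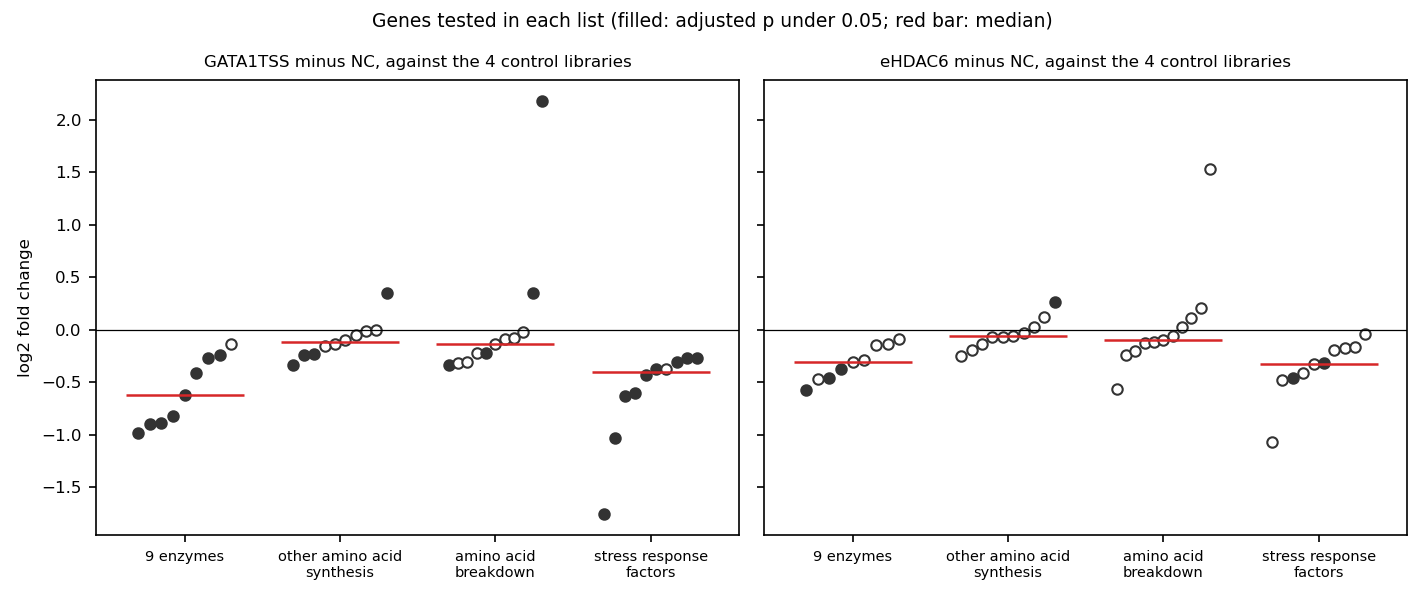
Log2 fold change (vertical axis) against the 4 lower control libraries of the tested genes of each list, with GATA1TSS (left) and eHDAC6 (right); filled points passed an edgeR adjusted p under 0.05 and red bars are medians. The medians of the 9 enzymes are -0.62 and -0.31 and those of the other synthesis enzymes -0.12 and -0.07. All lists were chosen with earlier results of these data known.

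The shape of the ASNS, PSAT1 and PHGDH levels over the 24 libraries was compared with every gene of at least 5 CPM (9965 genes) by the root mean square difference of centred log2 CPM. The mean profile of the 3 ranged over 3.33 log2 units, and the median distance over all genes was 1.12. Of the other members CTH (0.185) and GPT2 (0.20) were closer than any gene outside the set, PSPH stood at 0.667, PYCR1 at 0.716, SHMT2 at 0.782 and ALDH18A1 at 1.02. This is a description. Within a library all genes share the same cells, total count and scaling, and the totals differed between libraries.

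The 10 nearest genes outside the set were ALDH1L2 (0.207), INHBE (0.244), CHAC1 (0.246), WARS (0.301), SLC6A9 (0.317), AKNA (0.34), SLC7A11-AS1 (0.353), SLC7A11 (0.357), SLC1A4 (0.396) and PCK2 (0.399). ALDH1L2, a mitochondrial enzyme of folate metabolism, stood at 171 ± 29.1 CPM (SD, n = 8) and 43.3 ± 4.51 (n = 4) in the 2 parts of the controls, at 33.7 ± 10.98 with eHDAC6 and at 27.1 ± 10.7 with GATA1TSS (n = 6 each). WARS, the cytosolic tryptophanyl-tRNA synthetase, stood at 884 ± 136, 369 ± 24.6, 290 ± 64.1 and 241 ± 44.3 CPM in the same order. SLC7A11, the cystine and glutamate exchanger, stood at 166 ± 18.98, 72.8 ± 9.35, 44.7 ± 11.5 and 47.3 ± 12.5 CPM. SLC7A11-AS1 is its antisense partner, and exons of SLC6A9 overlap CCDC24 on the opposite strand, so reads of these genes are uncertain.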

How the data were processed

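The authors deposited raw read counts per gene symbol for each library. Positions and exon lengths come from RefSeq gene models on hg19, which the authors deposited as a BED file. The submitters' processing notes list TopHat2 2.0.8, Bowtie2 2.1.0, SAMtools 0.1.19 and Picard without saying what each did, and no counting tool is named there. The test was that of edgeR 4.0.16 under R 4.3.3 (TMM factors 0.951 to 1.03, quasi-likelihood test, 1 coefficient per sgRNA over 24 libraries, Benjamini-Hochberg adjusted over all genes tested, called under 0.05), after filtering by sgRNA (minimum count 10, minimum total 15, proportion 0.7). For an element, both sgRNAs were averaged and set against the average of the NC sgRNAs. Standard errors come from the F statistic and intervals are 95%. The SD is between libraries. CPM use the TMM-scaled total; log2 CPM for profiles have a prior count of 2.

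The members and lists were chosen with earlier results of these data known. Named genes were all members, up to 3 called genes per list with the largest change in either comparison with NC (mean of at least 5 CPM), and the 10 nearest profiles. Alternatives were RLE size factors, no filter, DESeq2 1.42.0, a replicate block, an element model, summed counts per sgRNA, subsets of libraries and leaving out each library. The scripts were tested on simulated data. No library was left out; no replicate pair was alike within sampling noise (chi-square per gene 2.43 to 29.8).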

Additional observations from a re-analysis of the deposited data

Results flagged for a closer look

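Among the 6 eHDAC6 libraries, PSPH stood high in eHDAC6-Guide1 replicate 2, at 36.6 CPM, and the gap to the next library was 0.667 of the group's range. ALDH18A1 stood high in eHDAC6-Guide2 replicate 2, at 90.3 CPM, with a gap of 0.689 of the range. Chance gives such a gap in about 1 in 20 groups of this size if all libraries of a group have the same distribution. These 6 libraries were of 2 sgRNAs, so that rate need not hold here.

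ALDH18A1 differed between the GATA1TSS sgRNAs, by -0.39 on the log2 scale in the test of that difference (edgeR adjusted p = 0.00613), while its mean with GATA1TSS-Guide1 was 96.9% of that of the 4 lower controls.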

How the results depend on the processing

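With GATA1TSS against NC, the count of enzymes called lower was 9 in all 24 fits that left out 1 library and 8 or 9 under the other alternatives. With eHDAC6 against NC it was 9, 8 to 9 when 1 library was left out, 5 when counts were summed per sgRNA and 3 against the 4 lower controls. Between the GATA1TSS sgRNAs the count called lower was 1, and became 3 with no filter, 2 with DESeq2, 7 over the 12 targeted libraries and 0 to 3 when 1 library was left out. It was 0 without GATA1TSS-Guide2 replicate 3, 3 without NC-Guide4 replicate 1, and 2 without NC-Guide2 replicate 1, NC-Guide3 replicate 1 or NC-Guide4 replicate 3. Over the 12 targeted libraries it was 3 between the eHDAC6 sgRNAs, and 4 were higher with eHDAC6 than with GATA1TSS; over all 24 both were 0. Over the NC sgRNAs the count was 3, and became 8 with no filter, 5 with the replicate block and 0 to 8 when 1 library was left out. Beyond the number of samples and genes that these fits hold, the cause was not tested. No member's change reversed its sign where it was called. Apart from the fits on subsets of libraries, the share of all genes called under these alternatives is not given here. Their counts are thus not set against it.

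Most pairs of libraries with the same replicate number did not vary together. Of 84 such pairs 8 had a correlation of deviations over 0.1 (median 0.016, highest 0.43, and median -0.0059 for different numbers). Only 7 of 24 libraries correlated best with their own number. In NC-Guide3 and NC-Guide4, though, replicate 1 was among the 8 control libraries and replicates 2 and 3 were among the 4. With the replicate block 9 enzymes were still called lower with each element against NC.

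Depth limits GPT2 most, with 39 counts in GATA1TSS-Guide2 replicate 2, where CTH had 112 and PSPH 160. The error is that between cultures of 1 cell line with the same sgRNA, and each element has 2 sgRNAs. The labels give no batch to set beside the division of the controls.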
